A study of Homo sapiens with 6 samples.

Results

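Circadian clock genes were followed in SW480 cells, an established human colon adenocarcinoma line, after MPM-1 treatment. They are a set of 10 genes taken by symbol: CLOCK, ARNTL (also called BMAL1), PER1, PER2, PER3, CRY1, CRY2, NR1D1, NR1D2 and BHLHE40. All 10 were found among the 12982 genes measured. Expression was measured by RNA sequencing in 6 libraries. In 3 of them, wild-type SW480 cells had received DMSO, the solvent control. In the other 3, the same cells had received MPM-1, a fluorescent mitochondrial probe that the labels also call WT4, and both treatments lasted 24 h. The dose of MPM-1 used for sequencing is not given in the sources used here, and 1 cell line was used.

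The circadian clock is a transcriptional feedback loop that most cells carry. The CLOCK and ARNTL proteins form a dimer that binds E-box elements and activates the PER, CRY, NR1D1, NR1D2 and BHLHE40 genes. PER and CRY proteins then inhibit that dimer, NR1D1 and NR1D2 (REV-ERB alpha and beta) repress ARNTL, and BHLHE40 (DEC1) competes for E-boxes. BHLHE40 is also known as a gene that many stress and growth signals induce. Each treatment was sampled at 1 time and no synchronisation of the cells was described, so a changed level and a shifted phase cannot be told apart here. In these bulk libraries, fewer cells of a type and less RNA per cell cannot be told apart either.

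Elements of the loop in the members' own promoters are shown because CLOCK and ARNTL, and the D-box factors among their partners, are known to act through them. The windows were the 250 bases before each RefSeq gene start on GRCh38.p14, and the 10 genes had 15 such windows, with ARNTL listed there as BMAL1. The E-box CACGTG, searched on both strands, was present in 3 of the 15 windows, those of PER1, NR1D2 and BHLHE40. That is 20.0% of the windows, against 6.32% of all 34943 promoter windows. The related CACGTT, whose other strand reads AACGTG, was present in 5 of 15, against 4.55% of all windows. They belonged to CLOCK, PER2, CRY1, CRY2 and NR1D1. The D-box TTATGTAA, read by DBP, TEF and NFIL3, was present in the windows of PER3 and NR1D2, 13.3% of 15 against 0.839% of all. Each stretch is written along the strand of its gene, 5′ to 3′, with the element in capitals.
PER1, chr17:8152562-8152587, minus strand: cacccaggtcCACGTGcgcccgtgtg
NR1D2, chr3:23945956-23945981, plus strand: cgggcggggaCACGTGaggccgctcg
NR1D2, chr3:23946006-23946031, plus strand: gccgcagggaCACGTGggggcggggg
BHLHE40, chr3:4979187-4979207, plus strand: tccaaCACGTGagactcatgt
PER2, chr2:238288792-238288817, minus strand: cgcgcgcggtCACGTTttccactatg
CRY1, chr12:107093623-107093648, minus strand: acacttcagaAACGTGaggtgccggt
CRY2, chr11:45847277-45847302, plus strand: acatggtaggAACGTGagggggcggg
NR1D1, chr17:40100742-40100767, minus strand: gcaagagctcAACGTGccggctgttg
CLOCK, chr4:55546104-55546129, minus strand: accactcgggCACGTTtggagcagcg
PER3, chr1:7784104-7784131, plus strand: agcccgcgcgTTATGTAAcgcgccccgg
NR1D2, chr3:23945917-23945944, plus strand: tgacgcggcaTTACATAAtgggcgctga
The last of these reads TTATGTAA on the opposite strand. The full cAMP response element TGACGTCA was in 0 of the 15 windows and in 1.63% of all windows. The shorter TGACG was in 5 of 15 against 21.2% of all, and the REV-ERB and ROR element AGGTCA was in 3 of 15 against 12.1%. The D-box variant TTACGTAA was in 0 of 15 and in 0.106% of all. A match is a description of these letters and not a measured binding site.

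The libraries held 32095456 to 40269820 counts with DMSO and 31733667 to 35403841 with MPM-1. Counts from mitochondrial DNA made up 8.28% to 9.11% of a DMSO library and 1.95% to 2.35% of an MPM-1 library. All 7 colon epithelial markers were present, with a summed level of 8247 to 9633 CPM (counts scaled to library size) in DMSO and 12173 to 13706 CPM in MPM-1. Of these markers KRT8, KRT18, KRT19 and CDH1 were higher, by log2 fold changes of 0.42, 0.89, 0.89 and 0.82, EPCAM did not pass the test, and CDX2 fell by 2.20 and VIL1 by 0.88 on the log2 scale. Of 12 fibroblast, leukocyte and endothelial markers, 2 were matched, COL1A1 and CD14, with summed levels of 11.3 to 13.2 CPM in DMSO and 2.23 to 6.11 CPM in MPM-1. No endothelial marker was matched. The labels do not say whether the 3 libraries of a treatment came from separate cultures, so p-values measure the spread between these libraries, which may be technical.

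Of the 10 clock genes, 6 were higher after MPM-1, 2 were lower and 2 did not pass the test, which was edgeR's quasi-likelihood test with a Benjamini-Hochberg adjusted p under 0.05 over all genes. BHLHE40 changed most, followed by NR1D1 and PER1, then CRY2, NR1D2 and PER2. CLOCK and CRY1 fell. ARNTL and PER3 did not pass. Over all genes measured, 27.7% of genes passed as higher and 28.8% as lower, so 8 of 10 stands beside a background of 56.5%. With library size as the only scaling the genes that passed over the table divided into 2589 higher and 4871 lower, against 3596 and 3740 here, whereas the clock genes again divided into 6 higher and 2 lower. The median log2 fold change of the 10 was 0.84 and their range ran from -0.72 to 2.85, against a median of -0.03 over all genes. A differentially expressed gene (DEG) had an adjusted p under 0.01 and a change of at least 1 on the log2 scale. By these stricter limits BHLHE40, NR1D1 and PER1 were higher and 0 were lower. PER1 no longer met them with library size alone (edgeR's adjusted p = 0.0125), with DESeq2's test (adjusted p = 0.0177) or on FPKM. The same held without any 1 of the DMSO libraries and without MPM-1 replicate 1 or 3. PER1 still met them in the other alternatives, among them a replicate block and leaving out MPM-1 replicate 2. Of all genes measured, 5.58% were DEGs with higher levels and 8.75% with lower levels, 14.3% in either direction.

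**Figure D1:**
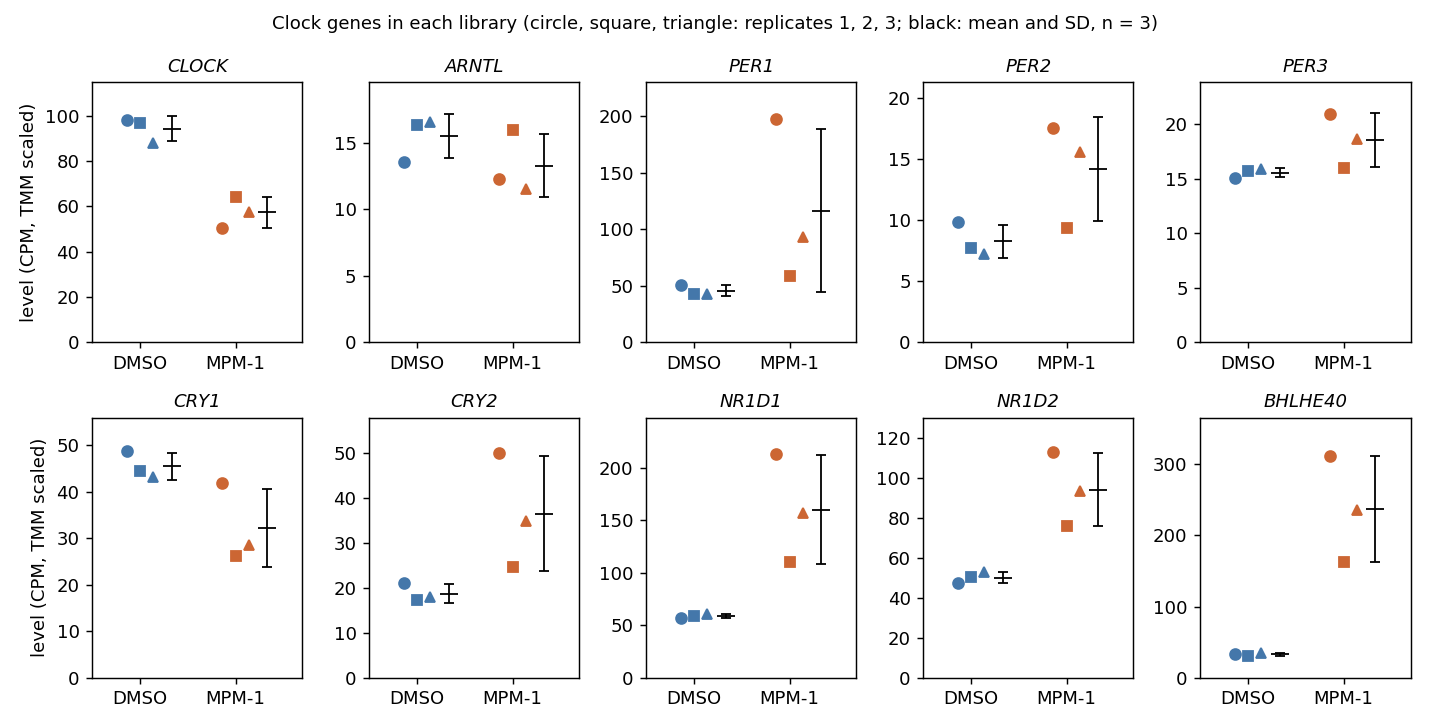
Level of each clock gene in each library, in CPM with TMM scaling, for 3 DMSO libraries (blue) and 3 MPM-1 libraries (orange), with the mean and SD in black. The MPM-1 libraries of BHLHE40 lie between 163 and 312 CPM against 31.0 to 34.6 CPM in DMSO, while those of ARNTL and PER3 sit near their controls.

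In CPM, libraries of the treatments did not overlap for 8 of the 10 genes, against 64.3% of all genes. The 6 that lay higher with MPM-1 were PER1, PER3, CRY2, NR1D1, NR1D2 and BHLHE40. The 2 that lay lower were CLOCK and CRY1, and libraries of ARNTL and PER2 overlapped.

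The activating arm was lower in 1 of its 2 genes. CLOCK (chr4:55427903-55547138, minus strand, GRCh38) encodes the basic helix-loop-helix partner of ARNTL in the activating dimer. Its level was 98.1, 96.9 and 87.8 CPM in DMSO replicates 1 to 3 and 50.5, 64.2 and 57.3 CPM in the MPM-1 replicates. Every MPM-1 library lay below every DMSO library. The mean was 94.3 ± 5.63 CPM in DMSO and 57.3 ± 6.84 CPM in MPM-1 (SD, n = 3 each), a log2 fold change of -0.72 (SE 0.10) with edgeR's adjusted p = 0.00024. CLOCK was thus 1.64-fold lower. It shares 76 exon bases with TMEM165 on the opposite strand, a gene that was also lower, by a log2 fold change of -0.41 (edgeR's adjusted p = 0.0112). The strand setting of the counting is not given in the sources used here, so reads over shared exon bases cannot be assigned.

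ARNTL (chr11:13276652-13387266, plus strand), the partner of CLOCK, stood at 13.6, 16.3 and 16.5 CPM in DMSO and at 12.3, 16.0 and 11.6 CPM in MPM-1. The libraries overlapped. Its log2 fold change was -0.22 (SE 0.16) and did not pass edgeR's test, with adjusted p = 0.258. The ratio of CLOCK to ARNTL counts within a library, on the log2 scale, was 2.61 ± 0.22 in DMSO and 2.12 ± 0.17 in MPM-1. NPAS2, which can replace CLOCK, had a log2 fold change of -0.18 and ARNTL2, which can replace ARNTL, one of 0.25. Neither passed, with edgeR's adjusted p of 0.417 and 0.101. On FPKM, ARNTL2 passed limma's test at 0.50 and 0.62 with pseudocounts of 1 and 0.1, with adjusted p-values of 0.0223 and 0.0233.

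The period genes encode the inhibitory partners of the cryptochromes, and 2 of 3 were higher. PER1 (chr17:8140472-8156506, minus strand), which cAMP and glucocorticoid signals are known to induce quickly, had 1684, 1838 and 1699 counts in DMSO and 6020, 1799 and 3142 counts in MPM-1. Scaled, its levels were 51.1, 42.6 and 42.7 CPM against 198, 58.5 and 93.6 CPM. All MPM-1 libraries lay above all DMSO libraries, but the highest was 3.38 times the lowest. The log2 fold change was 1.36 (SE 0.35), 2.57-fold, with edgeR's adjusted p = 0.00853. Without MPM-1 replicate 1 it was 0.76 with edgeR's adjusted p = 0.00549, so that library held much of the size.

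PER2 (chr2:238244038-238290102, minus strand) was the member with the lowest level per length in DMSO. It stood at 9.82, 7.76 and 7.26 CPM in DMSO and at 17.6, 9.40 and 15.6 CPM in MPM-1. MPM-1 replicate 2 fell within the DMSO libraries, and the others lay above them. The log2 fold change was 0.78 (SE 0.23), 1.72-fold, with edgeR's adjusted p = 0.0177. The call was lost without DMSO replicate 2 or 3 and without MPM-1 replicate 1 or 3, where edgeR's adjusted p was 0.0608, 0.0628, 0.0512 and 0.0554.

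PER3 (chr1:7784320-7845177, plus strand), which is known to be dispensable for the core loop, stood at 15.1, 15.7 and 15.9 CPM in DMSO and 20.9, 16.0 and 18.7 CPM in MPM-1. MPM-1 replicate 2 was just above the highest DMSO library in CPM. On FPKM that replicate was the lowest of all libraries, at 2.37 against 2.64 to 2.80 in DMSO. The log2 fold change of PER3, 0.25 (SE 0.13), did not pass, with edgeR's adjusted p = 0.127. It passed without MPM-1 replicate 2, at 0.37 with edgeR's adjusted p = 0.0355. PER3 shares 868 exon bases with UTS2 on the opposite strand, which had a log2 fold change of 0.09 (edgeR's adjusted p = 0.732).

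The cryptochrome genes, which encode the strongest repressors of the CLOCK and ARNTL dimer, went in opposite directions. CRY1 (chr12:106991364-107093829, minus strand) had 48.6, 44.5 and 43.1 CPM in DMSO and 41.8, 26.2 and 28.6 CPM in MPM-1. MPM-1 replicate 1 lay just below the lowest DMSO library and the others well below it. The log2 fold change was -0.50 (SE 0.16), 1.41-fold lower, with edgeR's adjusted p = 0.0227. The call was lost without DMSO replicate 1 or 2 and without MPM-1 replicate 2 or 3, with edgeR's adjusted p of 0.0698, 0.0538, 0.0828 and 0.103.

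CRY2 (chr11:45847118-45883248, plus strand) had 21.0, 17.2 and 18.0 CPM in DMSO and 50.1, 24.7 and 35.0 CPM in MPM-1. All MPM-1 libraries lay above all DMSO libraries. CRY2 was 1.95-fold higher, a log2 fold change of 0.97 (SE 0.22), with edgeR's adjusted p = 0.00412. The log2 ratio of CRY1 to CRY2 counts was 1.21, 1.37 and 1.26 in the DMSO libraries and -0.26, 0.09 and -0.29 in the MPM-1 libraries. CRY1 counts therefore exceeded those of CRY2 in every DMSO library, and in MPM-1 replicate 2 alone among the treated ones. The mean ratio went from 1.28 ± 0.08 to -0.16 ± 0.21, a change of -1.43 or 2.70-fold. Counts are not scaled for gene length, so the sign of this ratio does not show which gene had the higher level. On FPKM, which is scaled for length, CRY1 stayed above CRY2 in every library. With MPM-1 it stood at 20.6, 9.64 and 12.5 FPKM in replicates 1 to 3, against 10.7, 5.50 and 7.62 for CRY2.

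The REV-ERB genes, nuclear receptors that bind heme and repress transcription, were both higher. NR1D1 (chr17:40092787-40100725, minus strand) had 57.0, 59.1 and 60.2 CPM in DMSO and 213, 109.7 and 157 CPM in MPM-1. The lowest MPM-1 library was well above the highest DMSO library. The mean was 58.7 ± 1.60 CPM in DMSO and 159.9 ± 51.8 CPM in MPM-1. This 2.72-fold difference was 1.44 on the log2 scale (SE 0.19), with edgeR's adjusted p = 0.000209. NR1D1 shares 263 exon bases with THRA, the thyroid hormone receptor alpha gene on the opposite strand. THRA moved the other way, with a log2 fold change of -0.54 (edgeR's adjusted p = 0.00409).

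NR1D2 (chr3:23945260-23980618, plus strand) had 47.1, 50.3 and 52.7 CPM in DMSO and 113, 76.0 and 93.5 CPM in MPM-1. Of its 2 promoter windows, 1 held a pair of E-boxes and the other none. The libraries did not overlap. NR1D2 was 1.88-fold higher, a log2 fold change of 0.91 (SE 0.13), with edgeR's adjusted p = 0.000305. NKIRAS1 overlaps NR1D2 on the opposite strand but shares 0 exon bases with it. The log2 ratio of NR1D1 to NR1D2 counts was 0.27, 0.23 and 0.19 in DMSO and 0.92, 0.53 and 0.75 in MPM-1, so NR1D1 was the larger of the pair in all 6 libraries and more so in every treated one.

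BHLHE40 (chr3:4979116-4985323, plus strand), the basic helix-loop-helix repressor, had 1087, 1340 and 1380 counts in DMSO and 9515, 4998 and 7935 counts in MPM-1. Scaled, these were 33.0, 31.0 and 34.6 CPM against 312, 163 and 236 CPM. The lowest MPM-1 library was far above the highest DMSO library. BHLHE40 was 7.21-fold higher, a log2 fold change of 2.85 (SE 0.20), with edgeR's adjusted p = 5.19e-06. Its paralogue BHLHE41 (DEC2) stood at 3.60 ± 0.643 CPM in DMSO and 4.95 ± 0.438 CPM in MPM-1. The log2 fold change of BHLHE41 was 0.46 (SE 0.22) and did not pass, with edgeR's adjusted p = 0.0958.

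**Figure D2:**
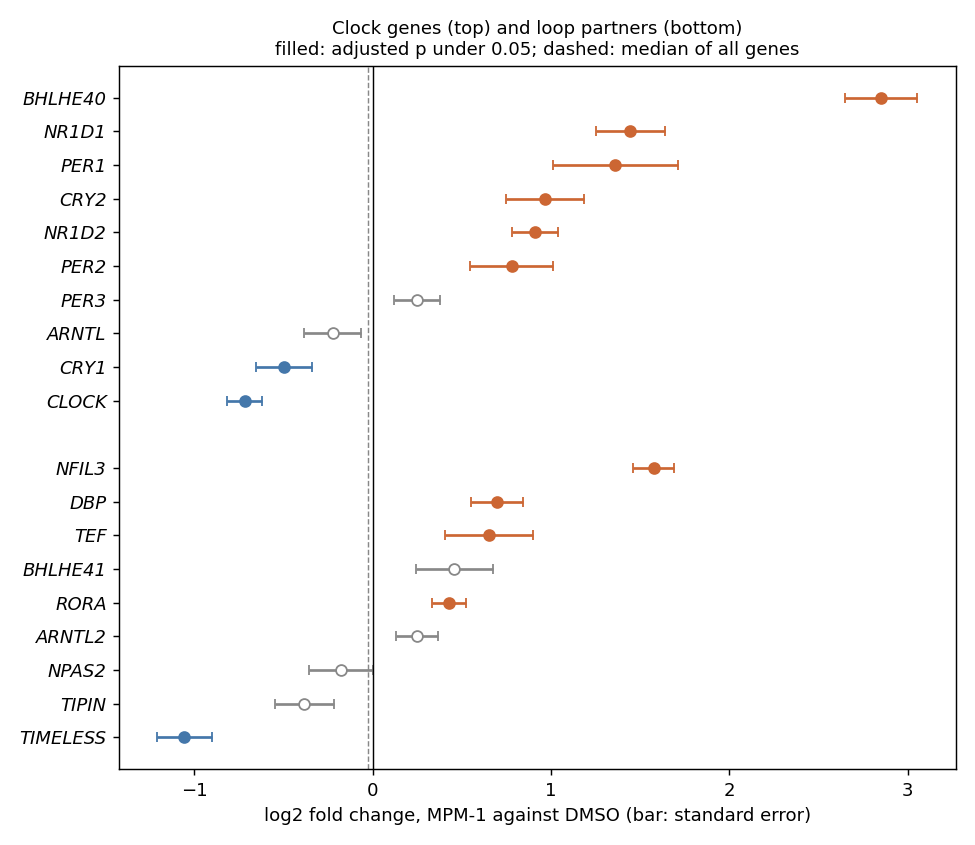
Log2 fold change of MPM-1 against DMSO with its standard error, for the 10 clock genes (top) and the 9 loop partners and paralogues with a DMSO mean of at least 2 CPM (bottom). Filled points passed the test, open points did not, and the dashed line marks the median of all genes at -0.03. BHLHE40 stands furthest to the right at 2.85, and TIMELESS furthest to the left at -1.05.

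Of 13 loop partners and paralogues 10 were matched, of which 4 were higher, 1 was lower and 5 did not pass, with a median log2 fold change of 0.34 against -0.03 over all genes. Thus 5 of 10 passed, a share below the 56.5% of all genes. The D-box factors NFIL3, DBP and TEF were among the 4 that were higher. NFIL3 (E4BP4), the D-box repressor, went from 12.1 ± 0.977 to 36.2 ± 3.63 CPM. Its log2 fold change was 1.58 (SE 0.12) with edgeR's adjusted p = 5.82e-06. DBP, a D-box activator, had 67.3, 59.6 and 56.4 CPM in DMSO and 117, 75.4 and 105 CPM in MPM-1, a log2 fold change of 0.70 (SE 0.15, edgeR's adjusted p = 0.00287). DBP shares 661 exon bases with SPHK2 on the opposite strand. TEF, the related activator, had a log2 fold change of 0.65 (edgeR's adjusted p = 0.0473), with libraries that overlapped and a call lost in 9 of the alternatives.

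RORA, the receptor that activates ARNTL at the elements the REV-ERBs occupy, was higher by a log2 fold change of 0.43 (SE 0.09, edgeR's adjusted p = 0.00387). TIMELESS, which in mammals acts mainly at replication forks, was the 1 partner that fell, by 1.05 on the log2 scale (SE 0.15, edgeR's adjusted p = 0.000313). CIART, RORB and HLF were not analysed here.

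Of 26 genes whose proteins modify or accompany clock proteins, 24 were matched, with 11 higher, 5 lower and 8 not passing and a median log2 fold change of 0.20. The share that passed was 66.7%, near the 56.5% of all genes, with 45.8% higher against 27.7% and 20.8% lower against 28.8%. Only 1 of them was a DEG, USP2, whose level was low, with means of 2.96 CPM in DMSO and 1.22 CPM in MPM-1. CSNK1E, a kinase that marks PER proteins for degradation, was higher by a log2 fold change of 0.58 (edgeR's adjusted p = 0.000824). CSNK2A1, a catalytic subunit of casein kinase, was higher by 0.83 (edgeR's adjusted p = 2.05e-05), although reads may be shared with its near-identical copy CSNK2A3. SIRT1, the NAD-dependent deacetylase that binds CLOCK, was higher by 0.79 (edgeR's adjusted p = 0.000539). Falls were found for the deubiquitinase USP2 at -1.27, the acetyltransferase EP300 at -0.45 and the ubiquitin ligase scaffold CUL1 at -0.40, with edgeR's adjusted p of 0.00241, 0.00306 and 0.0079.

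Of 12 genes known as outputs of the clock, all were matched and 9 were higher, 2 were lower and 1 did not pass, with a median log2 fold change of 0.98. The higher share was 75.0% against 27.7% of all genes, and the lower share 16.7% against 28.8%. These genes also answer to signals outside the clock. NAMPT, the rate-limiting enzyme of NAD salvage, was at 182 ± 4.19 CPM in DMSO and 748 ± 6.05 CPM in MPM-1, higher by 2.04 on the log2 scale (edgeR's adjusted p = 8.46e-08). The treated libraries of NAMPT were nearly equal, unlike those of BHLHE40. TSC22D3, the glucocorticoid-induced leucine zipper, was higher by 1.77 (edgeR's adjusted p = 1.11e-05). The falls were those of PPARA, a receptor of fatty acid oxidation, at -0.49, and of WEE1, a kinase that restrains mitosis, at -0.37, with edgeR's adjusted p of 0.00166 and 0.00581.

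Of 12 genes that carry signals into the clock, 11 were matched, with 7 higher, 1 lower and 3 not passing and a median log2 fold change of 0.45. The share that passed was 72.7% against 56.5% of all genes, and the higher share 63.6% against 27.7%. SIK1, a kinase that limits how far light resets the clock, was higher by a log2 fold change of 2.03 from 2.61 CPM (edgeR's adjusted p = 7.79e-05), and has a near-identical copy, SIK1B, with which reads may be shared. EPAS1, the hypoxia factor HIF-2 alpha, was higher by 1.27 and CREM, a cAMP-responsive regulator, by 0.69, with edgeR's adjusted p of 8.51e-05 and 0.00065. FKBP5, a glucocorticoid receptor co-chaperone, was lower at -0.46 (edgeR's adjusted p = 0.0131), a call lost without DMSO replicate 2 or MPM-1 replicate 3. NR3C1, the glucocorticoid receptor gene, was not analysed here.

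The treated libraries stood in the same order for most clock genes. MPM-1 replicate 1 was highest, replicate 3 next and replicate 2 lowest in 8 of the 10, including all 6 that passed as higher. The exceptions were CLOCK, highest in replicate 2 and lowest in replicate 1, and ARNTL. The same order held in 22.3% of all genes and in 33.3% of the genes that passed as higher. For BHLHE40 the change from the DMSO mean, as a difference of log2 CPM, was 3.25, 2.30 and 2.84 in replicates 1 to 3. For PER1 it was 2.12, 0.37 and 1.05, and for CLOCK it was -0.90, -0.55 and -0.72. CLOCK thus fell furthest in the library where the 6 higher genes stood highest. The order seen for CLOCK held in 22.1% of all genes and in 31.2% of the genes that passed as lower. CRY1, which also fell, did not share it, with changes of -0.12, -0.79 and -0.67 in replicates 1 to 3.

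**Figure D3:**
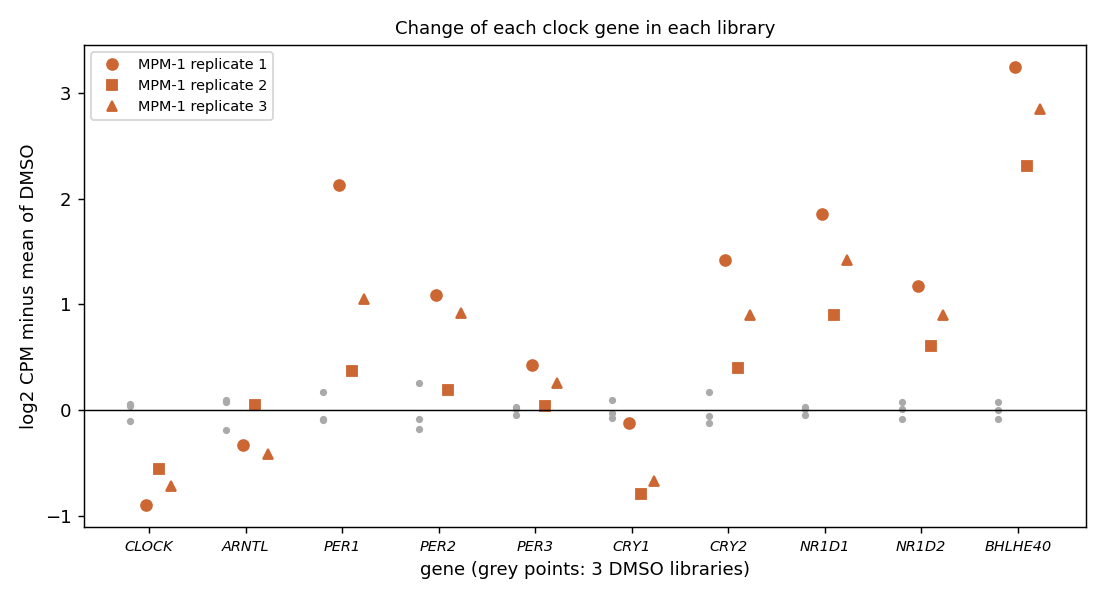
Difference between log2 CPM in each MPM-1 library and the mean of the DMSO libraries, for the 10 clock genes, with the 3 DMSO libraries as grey points. Replicate 1 (circle) is the uppermost and replicate 2 (square) the lowest for the 6 genes that passed as higher, and CLOCK shows the reverse.

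The spread among treated libraries was wide for several members. The SD of log2 CPM among MPM-1 libraries was 0.89 for PER1, at the 97.8th percentile of all genes, and 0.51 for CRY2, 0.48 for NR1D1, 0.48 for PER2 and 0.47 for BHLHE40, against a median of 0.14 over all genes. CLOCK had an SD of 0.17. Over all genes that passed as higher, the median difference of log2 CPM from DMSO was 0.66, 0.58 and 0.61 in replicates 1 to 3. Those that passed as lower had medians of -0.82, -0.68 and -0.75. Among the treated libraries replicate 1 also had the lowest share of mitochondrial DNA counts, 1.95%, against 2.24% in replicate 2 and 2.35% in replicate 3. The part of that share in the order of the libraries was not tested.

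Ratios between clock genes within a library do not depend on how libraries are scaled. Of 10 pairs compared, 8 had treated and control libraries that did not overlap. The pairs share genes, so they are not separate results. Of single genes over the whole set measured, 64.3% did not overlap, and the share among other pairs of genes was not computed. With 3 libraries against 3 the exact two-sided permutation test cannot give a p below 0.10, and it gave 0.10 for these 8 (0.125 after adjustment over the 10 pairs). ARNTL relative to NR1D1, an activator against its repressor, went from -1.93 ± 0.12 to -3.55 ± 0.69 as a mean log2 ratio, 3.08-fold lower. BHLHE40 relative to PER1 went from -0.46 ± 0.17 to 1.16 ± 0.44, 3.07-fold higher. BHLHE40 counts were below those of PER1 in every DMSO library and above them in every MPM-1 library. The sign of such a ratio depends on gene length, for which counts are not scaled. On FPKM, BHLHE40 stood at 9.47, 9.23 and 10.3 in DMSO replicates 1 to 3, against 10.9, 9.37 and 9.39 for PER1. It was thus above PER1 in DMSO replicate 3, and again in every MPM-1 library.

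CRY1 relative to PER2 went from 2.46 ± 0.14 to 1.20 ± 0.31. PER1 relative to PER3 went from 1.54 ± 0.19 to 2.48 ± 0.70 and relative to PER2 from 2.46 ± 0.09 to 2.90 ± 0.51. These PER1 ratios were widest in MPM-1 replicate 1. For PER1 to PER2 that library stood at 3.49. Replicates 2 and 3, at 2.64 and 2.58, were just above the highest DMSO ratio of 2.55. The pairs whose libraries overlapped were PER2 to PER3, -0.92 ± 0.27 and -0.42 ± 0.29, and ARNTL to PER2, 0.91 ± 0.39 and -0.06 ± 0.72. Their exact permutation p was 0.20.

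**Figure D4:**
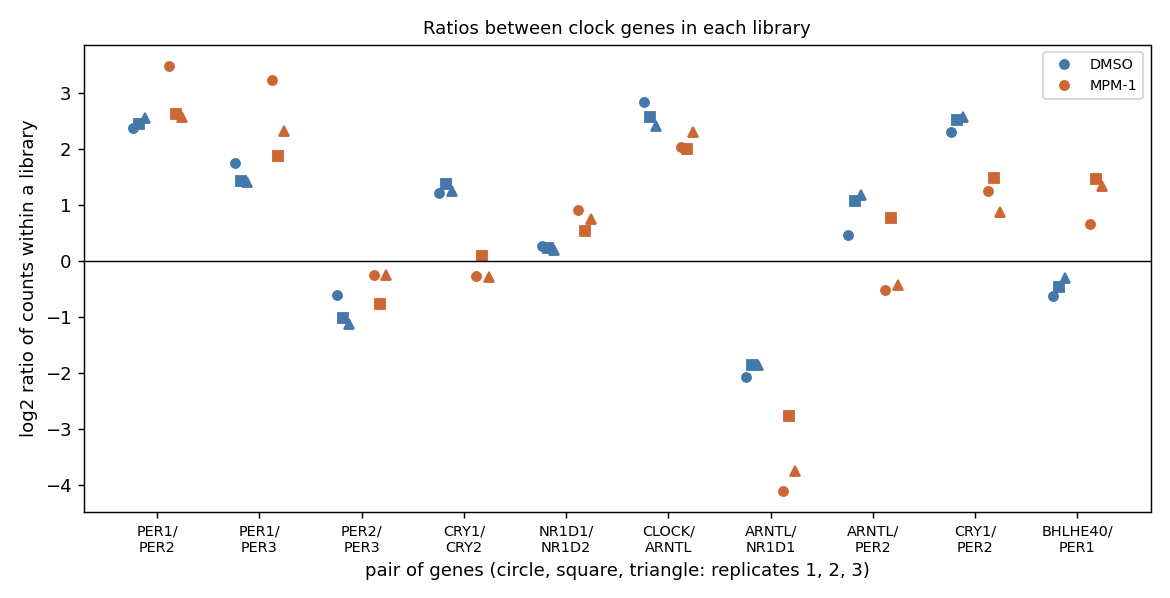
Log2 ratio of the counts of paired clock genes within each library, DMSO in blue and MPM-1 in orange, with circles, squares and triangles for replicates 1, 2 and 3. CRY1/CRY2 moves from 1.28 to -0.16 and ARNTL/NR1D1 from -1.93 to -3.55, while PER2/PER3 and ARNTL/PER2 overlap. Counts are not scaled for gene length, so the sign of a ratio does not order the levels of its genes.

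Levels were compared between genes as FPKM, fragment counts that the authors scaled for length and library size. In DMSO the order was NR1D1 (21.6 ± 0.980 FPKM), CRY1 (18.0 ± 0.946), then PER1, NR1D2, BHLHE40 and CLOCK between 9.52 and 9.89, followed by ARNTL (5.99), CRY2 (4.54), PER3 (2.70) and PER2 (1.32). PER1, NR1D2, BHLHE40 and CLOCK were not separated from their neighbours beyond the libraries' spread, whereas the other neighbours did not overlap. After MPM-1 BHLHE40 led at 62.4 ± 18.6 FPKM, ahead of NR1D1 at 52.7 ± 16.1, and their libraries overlapped. PER1 stood at 23.4 ± 14.6, NR1D2 at 16.4 ± 2.90, CRY1 at 14.2 ± 5.71 and CRY2 at 7.94 ± 2.62 FPKM. CLOCK followed at 5.33 ± 0.456 and ARNTL at 5.19 ± 0.779, level with each other, where in DMSO the libraries of CLOCK had all been above those of ARNTL. This rests on the authors' scaling for length. Relative to the median gene, FPKM per count was higher with MPM-1 by 0.17 on the log2 scale for ARNTL and by 0.04 for CLOCK. PER3 at 2.97 ± 0.672 and PER2 at 2.03 ± 0.579 closed the order. With MPM-1 only the step from ARNTL to PER3 was free of overlap. BHLHE40 moved from the 55.8th to the 90.2nd percentile of all genes by mean FPKM.

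CRY1 was the member for which counts and FPKM differed most. Its FPKM values were 18.7, 18.4 and 16.9 in DMSO and 20.6, 9.64 and 12.5 in MPM-1, so the libraries overlapped on that scale and MPM-1 replicate 1 was the highest of all 6. FPKM per count, centred on the median gene of each library, was 1.20-fold higher with MPM-1 for CRY1, the 97.8th percentile of 12976 genes. On the log2 scale the treated libraries lay 0.49, 0.01 and 0.29 above DMSO. For ARNTL the difference was 0.17, while for PER1, PER3 and CLOCK it was 0.04 or less. CRY1 did not pass limma's test on FPKM, with adjusted p-values of 0.173 and 0.174 at pseudocounts of 1 and 0.1. How the authors' FPKM allows for transcripts of a gene is not given in the sources used here.

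**Figure D5:**
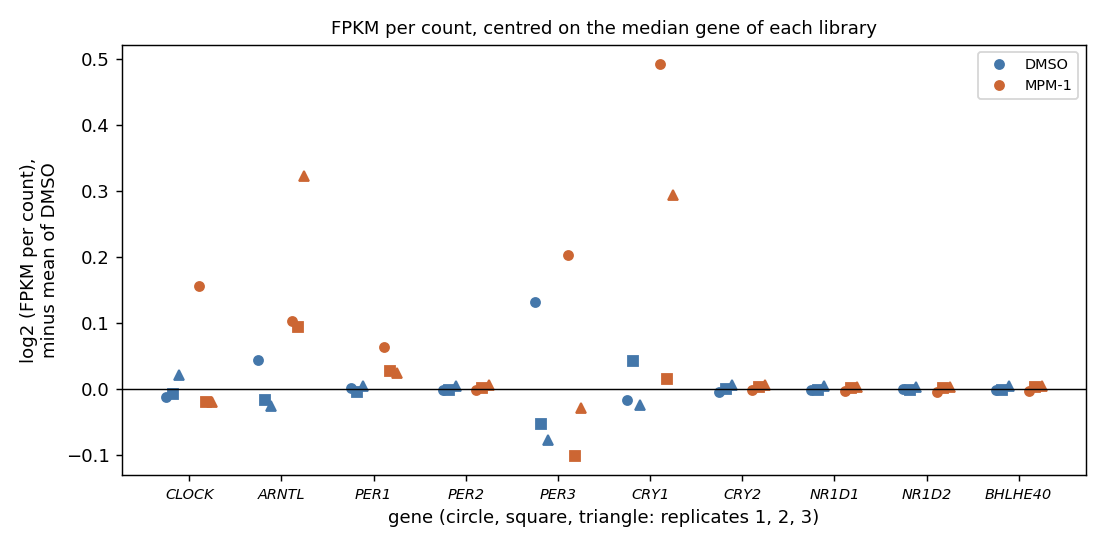
Log2 of FPKM per count for each clock gene in each library, centred on the median gene of the library and set relative to the DMSO mean, DMSO in blue and MPM-1 in orange. Points on the line at 0 show genes whose FPKM and counts move together, and CRY1 in MPM-1 replicates 1 and 3 lies 0.49 and 0.29 above it.

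The genes most like BHLHE40 across the 6 libraries, by Pearson's r of log2 CPM, were RNF223, CAMSAP1 and PHLDA2, each with r = 0.999. Those most like CLOCK were ZNF792, NSL1 and ZNF554, with r of 1.000, 0.999 and 0.998. These values describe 2 groups of libraries that lie apart, and r was above 0.95 for 1558 of 12981 genes with BHLHE40 and for 1079 with CLOCK.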

How the data were processed

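RNA of 6 SW480 libraries was sequenced from mRNA libraries. The authors deposited 1 table with whole-number counts and FPKM (fragments scaled for transcript length and library size) per gene and library. It also holds a log2 fold change and an FDR (adjusted p-value) of the authors' own comparison, deposited but not used here. The submitters' processing notes name HISAT2, DESeq2 and the mouse build mm10, whereas the identifiers are human. All 12127 Ensembl identifiers matched GENCODE 29 (GRCh38), from which positions were taken, and 855 genes carried none. The lowest total of a gene was 115 counts. The DMSO libraries had a median depth of 37534281 counts and the MPM-1 libraries of 32747716, and replicates of a treatment differed beyond counting noise.

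Counts were tested in R 4.3.3 with edgeR 4.0.16 (TMM scaling, quasi-likelihood test, no covariates) and Benjamini-Hochberg adjustment over all genes. CPM is counts relative to TMM-scaled library size, and log2 CPM used a prior count of 2. The SE is the log2 fold change divided by the root of the F statistic. Ratios used counts plus 0.5. Alternatives were DESeq2 1.42.0, limma 3.58.1 on log2(FPKM + 1) and log2(FPKM + 0.1), library size alone, scaling without mitochondrial DNA genes, a mean of at least 50 counts, a replicate block and leaving out each library. The scripts were tested on simulated data. Named genes were all members, loop paralogues, the 3 largest rises and 3 largest falls passing the test in each other list, genes overlapping a member, and the 3 most similar to BHLHE40 and to CLOCK. Some of them are not reported here. Members and lists were chosen with earlier results of these data known.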

Additional observations from a re-analysis of the deposited data

How the results depend on the processing

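BHLHE40, NR1D1, NR1D2, CRY2, PER1 and CLOCK kept their direction and passed the test in all 14 alternatives, with log2 fold changes of 2.53 to 3.09, 1.20 to 1.68, 0.69 to 1.07, 0.65 to 1.21, 0.76 to 1.71 and -0.87 to -0.62. PER2 (0.37 to 1.03) and CRY1 (-0.71 to -0.34) passed in 8 of 14, PER3 (0.09 to 0.37) in 1 and ARNTL (-0.37 to -0.12) in 0. The number of clock genes that fell was 1 to 2 with a library left out, and 1 on FPKM with either pseudocount. Clock genes that were DEGs with higher levels numbered 2 to 6 with a library left out, 6 being without MPM-1 replicate 2. The median of all genes moved from -0.03 to -0.18 with library size alone and to -0.13 and -0.17 on FPKM with pseudocounts of 1 and 0.1, and relative to it the clock genes kept their directions. On log2(FPKM + 1), DEGs over the table were 364 higher and 743 lower. Lower loop partners numbered 2 with library size alone and on FPKM, and 1 to 2 with a library left out. Higher modifiers numbered 7, 5 and 6 with library size alone and on FPKM with pseudocounts of 1 and 0.1, where the list's median was 0.049, 0.061 and 0.071, against 0.185 to 0.289 with a library left out. In the same 3 settings the median was 0.83, 0.82 and 0.85 for outputs and 0.30, 0.28 and 0.30 for inputs, and lower inputs were 0 to 1 with a library left out. NPAS2, not passing, ranged from -0.27 to 0.011 with a library left out, the latter without DMSO replicate 2. The log2 ratio of CLOCK means was -0.72 in CPM and -0.84 in FPKM. The cause of these shifts was not tested.

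With the replicate number as a block, log2 fold changes were 2.80 for BHLHE40, 1.18 for PER1, 0.74 for PER2 and -0.52 for CRY1. Deviations from the treatment mean had correlations of 0.02, 0.11 and -0.07 between samples sharing a number. No pairing was seen, but 3 libraries per treatment are too few to exclude it. The block changed the call of no clock gene, and TEF lost its call with edgeR's adjusted p = 0.0523. At these depths, each clock gene had at least 289 counts in every library, so counting error was small beside the spread between MPM-1 libraries. No group was large enough to test single libraries as outliers.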
